A study of Mus musculus with 12 samples.

Results

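Glucocorticoids act in the hippocampus through a pair of nuclear receptors, and 10 genes of that system were followed here in 12 libraries of hippocampal mRNA. The genes were the glucocorticoid receptor Nr3c1, the mineralocorticoid receptor Nr3c2, the receptor co-chaperone Fkbp5, and Sgk1, Tsc22d3, Zbtb16, Per1, Plin4, Pdk4 and Sult1a1, 7 further genes that respond to glucocorticoids in brain. They were taken by symbol from the 22236 genes of the expected-count table. Each of the 10 symbols matched 1 gene, and all 10 passed the filter on low counts that left 15853 genes for testing. By the main test (edgeR), Per1 was the single member that passed, with a lower level after knockdown of Hp1bp3 in 1 of 2 strains. Neither receptor passed that test in any comparison. DESeq2 called Nr3c2 between the strains averaged over treatments, where it called 24.6% of all genes and 3 of 10 members.

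The mice were adult males of 2 inbred strains, C57BL/6J (B6) and DBA/2J (D2), aged 3 to 5 months. Every mouse received adeno-associated virus of serotype 9 in the hippocampus on both sides, with a construct for 1 of 2 short hairpin RNAs, which targeted Hp1bp3 in the knockdown groups (KD) and had a scrambled sequence in the control groups (Ctrl). Hp1bp3 encodes a chromatin protein related to linker histones. The 4 groups, B6 Ctrl, B6 KD, D2 Ctrl and D2 KD, held 3 mice each, and tissue was taken at least 6 weeks after injection. The virus was aimed at the dorsal part and the whole hippocampus was taken, so each library mixes infected and uninfected cells of many types. In such bulk tissue fewer cells of a type and less RNA per cell cannot be told apart. The promoter that drives the hairpin, the hour of harvest and the mice that had gone through behavioral testing are not given in the sources used here. By mouse number, B6 KD (32, 35 and 38) came before B6 Ctrl (53, 55 and 56), while D2 Ctrl (30, 36 and 40) came before D2 KD (41, 49 and 57), so treatment and order cannot be told apart within a strain.

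The libraries held 18.2 M to 39.4 M expected counts (median 32.4 M). The members had between 104 counts (Sult1a1) and 9320 counts (Nr3c2) in a library. Levels are given as CPM, counts scaled to a common library total after TMM correction. Hp1bp3 itself stood at 308, 294 and 310 CPM in B6 Ctrl and at 185, 182 and 259 CPM in B6 KD. In D2 it stood at 226, 215 and 234 CPM in Ctrl and at 177, 163 and 230 CPM in KD. The third KD library of each strain was the highest of its group, and in D2 it lay inside the Ctrl range. The log2 fold change of Hp1bp3 was -0.54 ± 0.15 in B6 (SE, adjusted p = 0.076 by edgeR's quasi-likelihood test), and it was -0.25 ± 0.15 in D2 (adjusted p = 1). Averaged over strains on log2(CPM + 1), KD differed from Ctrl by -0.41 (exact permutation p = 0.015). Neuron markers of the hippocampus were present in every library, at a mean log2(CPM + 1) of 6.29 to 7.46 over 9 genes, while 9 genes of choroid plexus epithelium, a tissue next to the hippocampus, varied from 1.72 to 6.69.

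In the absence of hormone both receptors are held in the cytoplasm by heat-shock protein chaperones. Hormone binding frees them to enter the nucleus, where receptor dimers bind an inverted repeat of a short hexamer, or other factors, at target genes. The mineralocorticoid receptor has the higher affinity for corticosterone and is abundant in hippocampal neurons, while the glucocorticoid receptor is occupied mainly at the daily peak of hormone and in stress. FKBP5 lowers the affinity of the receptor for hormone and is itself induced by it, a short negative feedback loop.

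Promoter sequence was examined because the members share a regulator. RefSeq windows on GRCm38.p6, from 250 bases before to 50 bases after an annotated start, were at hand for 8 of the 10 members in 16 windows, with none for Nr3c1 and Zbtb16. The receptor hexamer AGAACA, or TGTTCT on the other strand, was in 5 of the 16 windows, those of Sgk1, Tsc22d3 and Sult1a1, and in 19% of all 32851 windows. The full element, both hexamers with 3 bases between them, was in 3 of the 32851 windows, or 0.00913%, and 1 of these was the fifth window of Sgk1. The E-box CACGTG, the site of the clock activators, was in 3 of the 16 windows, those of Fkbp5, Per1 and Sgk1, and in 7.15% of all windows. The short cAMP response element TGACG, or CGTCA on the other strand, was in 4 of the 16 windows, those of Per1, Sgk1 and Tsc22d3, and in 20.8% of all windows. The full element TGACGTCA was in no window of a member and in 1.79% of all windows. Both strands were searched, the hexamer count includes windows with the full receptor element, and the count of the short cAMP element includes windows with the full one.

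Shown are the 250 bases before the start for the Sgk1 window with the full receptor element, and for both Per1 windows, since Per1 is the member that passed a test. In the Sgk1 stretch (GRCm38.p6, chr10:21993640-21993889, plus strand) capitals mark the receptor hexamers, the full element, which begins 189 bases before the start, and an E-box that overlaps a hexamer. In the Per1 stretches (chr11:69098699-69098948 and chr11:69099902-69100151, plus strand) capitals mark the E-box, 166 bases before the first start, and the short cAMP response elements.
Sgk1 window 5: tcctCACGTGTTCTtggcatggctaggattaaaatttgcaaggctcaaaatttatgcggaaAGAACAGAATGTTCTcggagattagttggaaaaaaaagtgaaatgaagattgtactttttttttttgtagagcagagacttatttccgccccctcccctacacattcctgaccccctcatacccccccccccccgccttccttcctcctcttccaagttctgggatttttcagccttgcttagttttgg
Per1 window 1: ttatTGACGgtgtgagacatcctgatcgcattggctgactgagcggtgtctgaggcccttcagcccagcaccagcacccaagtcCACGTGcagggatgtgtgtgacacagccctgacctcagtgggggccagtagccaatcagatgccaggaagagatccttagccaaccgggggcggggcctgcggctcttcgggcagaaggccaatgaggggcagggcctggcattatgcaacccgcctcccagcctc
Per1 window 2: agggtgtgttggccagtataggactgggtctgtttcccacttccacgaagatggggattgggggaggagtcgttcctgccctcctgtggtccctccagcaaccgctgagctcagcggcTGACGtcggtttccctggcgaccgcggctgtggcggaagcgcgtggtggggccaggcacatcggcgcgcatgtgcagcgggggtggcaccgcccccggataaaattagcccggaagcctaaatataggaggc
A match in these windows is a description of the letters only, and no binding was measured in these samples.

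The glucocorticoid receptor gene Nr3c1, on chromosome 18, overlapped between all groups. It stood at 90.4, 98.6 and 124 CPM in B6 Ctrl and at 116, 115 and 60.8 CPM in B6 KD. Libraries of D2 stood at 125, 118 and 83.7 CPM in Ctrl and at 79.7, 89.2 and 115 CPM in KD. Each group held libraries both near the top and well below it, and all neighbouring groups in the order of means overlapped. The log2 fold change for KD against Ctrl was -0.10 ± 0.25 in B6 (adjusted p = 0.855), against -0.20 ± 0.25 in D2 (adjusted p = 1). Libraries low for Nr3c1 also shared another property. Genes with at least 10 kb of exon sequence, 1493 in all and none of them a member, took between 15.1% and 19.4% of the counts. The 4 libraries with the lowest shares, B6 KD 3 (15.1%), D2 Ctrl 3 (15.4%), D2 KD 2 (15.8%) and D2 KD 1 (15.9%), were also the 4 lowest for Nr3c1. With that share as a covariate, an alternative chosen after seeing the data, the value in B6 became 0.10 (adjusted p = 0.668). The part of this property in the level of Nr3c1 was otherwise not tested.

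**Figure D1:**
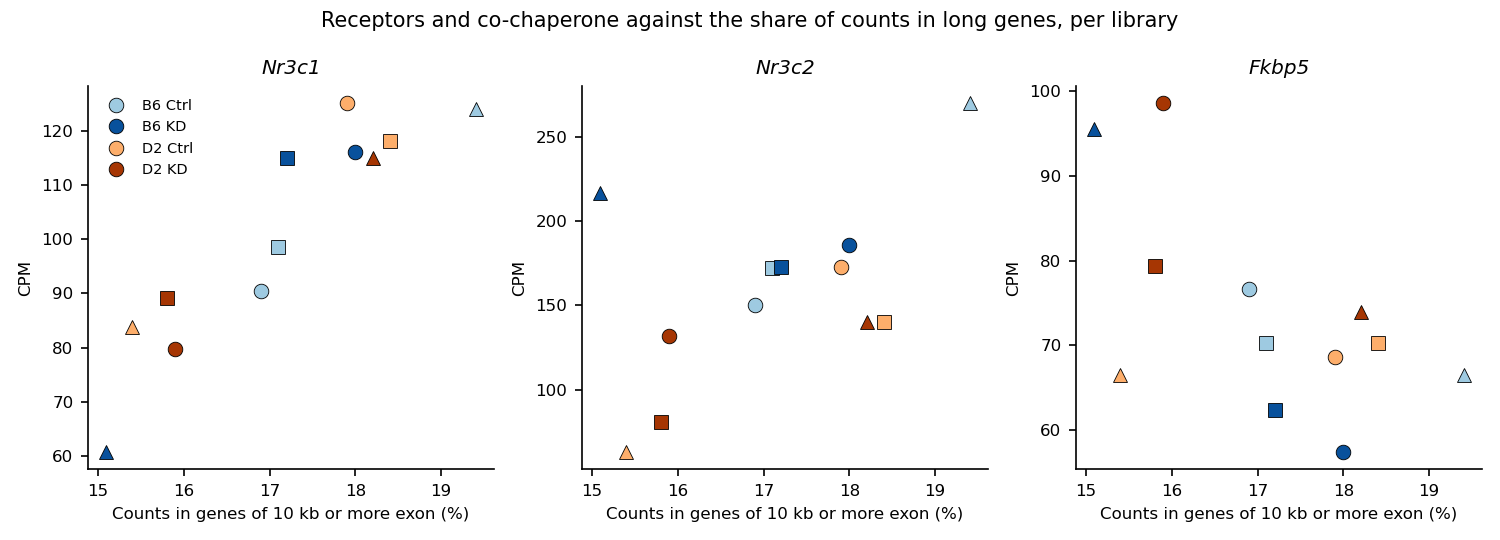
CPM of Nr3c1, Nr3c2 and Fkbp5 (y axes, not starting at 0) against the percentage of each library's counts in genes with at least 10 kb of exon (x axes), 1 point for each of the 12 libraries, colored by group, with circle, square and triangle for mouse 1, 2 and 3. The 4 libraries below 16.0% hold the 4 lowest values of Nr3c1, from 60.8 to 89.2 CPM, and B6 KD 3, the lowest, is among the highest for Nr3c2 and Fkbp5.

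The mineralocorticoid receptor gene Nr3c2, on chromosome 8, had lower means in D2 than in B6, short of the threshold. It stood at 150, 172 and 270 CPM in B6 Ctrl and at 186, 173 and 217 CPM in B6 KD. The D2 values were 173, 140 and 63.2 CPM in Ctrl and 132, 80.8 and 140 CPM in KD. The Ctrl libraries of the strains overlapped. The KD libraries did not, and the share of all genes without overlap between the KD groups is not given here. Between the Ctrl groups 31.7% of all genes showed no overlap. Averaged over treatments, the log2 fold change for D2 against B6 was -0.68 ± 0.24 (adjusted p = 0.0756), and DESeq2 placed it past the threshold (adjusted p = 0.0271). DESeq2 called 24.6% of all genes in that comparison. KD against Ctrl gave -0.04 ± 0.34 in B6 (adjusted p = 0.97), against -0.09 ± 0.34 in D2 (adjusted p = 1). Exons of Nr3c2 share 247 bases with exons on the other strand, counted over the genes Gm10649 and Gm24838 together. The strand setting of the counting is not given in the sources used here.

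Per length of exon, Nr3c2 was above Nr3c1 in each group mean. In CPM per kb, Nr3c2 stood at 30.4 ± 9.84 (Ctrl) and 29.7 ± 3.42 (KD) in B6 and at 19.4 ± 8.69 (Ctrl) and 18.2 ± 4.95 (KD) in D2, with SDs over 3 libraries each. Nr3c1 stood at 13.6 ± 2.27, 12.7 ± 4.11, 14.1 ± 2.85 and 12.3 ± 2.41 CPM per kb in the same order. Over all libraries the mean level per kb was highest for Nr3c2 (24.4), Zbtb16 (20.7) and Sgk1 (20.5), between 7.8 and 14.9 for Per1, Nr3c1, Tsc22d3 and Fkbp5, and lowest for Pdk4 (4.27), Sult1a1 (4.26) and Plin4 (1.71).

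Fkbp5, on chromosome 17, is the member most often read as a gauge of receptor activity. It stood at 76.6, 70.3 and 66.5 CPM in B6 Ctrl and at 57.5, 62.4 and 95.5 CPM in B6 KD. In D2 it stood at 68.6, 70.3 and 66.5 CPM in Ctrl and at 98.5, 79.4 and 74.0 CPM in KD. The Ctrl libraries of both strains lay close together, the KD libraries in D2 were all above those of D2 Ctrl, and of the B6 KD libraries 2 lay below and 1 lay above all Ctrl libraries. No overlap of 3 libraries against 3 was seen for 5.96% of all genes in D2, and Fkbp5 was 1 of 10 members there. The log2 fold change was 0.29 ± 0.17 in D2 (adjusted p = 1) and 0.02 ± 0.17 in B6 (adjusted p = 0.974). The high library in B6, B6 KD 3, was the one lowest for Nr3c1 and for Tsc22d3.

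Sgk1, on chromosome 10, encodes a kinase that regulates ion channels and transporters and is induced by both receptors. It stood at 95.5, 115 and 87.4 CPM in B6 Ctrl and at 104, 88.9 and 122 CPM in B6 KD. Libraries of D2 stood at 72.7, 113 and 118 CPM in Ctrl and at 99.1, 99.1 and 88.7 CPM in KD. The groups overlapped throughout, and the log2 fold change for KD was 0.08 ± 0.18 in B6 (adjusted p = 0.832), against -0.08 ± 0.18 in D2 (adjusted p = 1).

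Tsc22d3, on chromosome X, encodes GILZ, a leucine zipper protein that mediates anti-inflammatory effects of glucocorticoids. It stood at 82.5, 67.9 and 67.0 CPM in B6 Ctrl and at 67.8, 42.8 and 35.1 CPM in B6 KD. The D2 values were 45.7, 52.6 and 43.2 CPM in Ctrl and 36.6, 76.7 and 43.8 CPM in KD. B6 Ctrl lay above D2 Ctrl without overlap, while B6 KD reached into the range of B6 Ctrl by 1 library. The log2 fold change for KD in B6 was -0.58 ± 0.28 (adjusted p = 0.276), in D2 it was 0.15 ± 0.28 (adjusted p = 1), and for D2 against B6 in Ctrl it was -0.62 ± 0.28 (adjusted p = 0.218).

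Zbtb16, on chromosome 9, encodes the transcription factor PLZF. It stood at 106, 114 and 118 CPM in B6 Ctrl and at 74.6, 83.5 and 84.5 CPM in B6 KD, with no overlap. In D2 it stood at 134, 131 and 103 CPM in Ctrl and at 84.2, 141 and 137 CPM in KD, with full overlap. The log2 fold change was -0.48 ± 0.18 in B6 (unadjusted p = 0.0201, adjusted p = 0.154 by edgeR) and -0.02 ± 0.18 in D2 (adjusted p = 1). For D2 against B6 averaged over treatments it was 0.35 ± 0.12 (adjusted p = 0.0719), which DESeq2 placed past the threshold (adjusted p = 0.0295). DESeq2 called 24.6% of all genes there.

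Per1, on chromosome 11, was the single member that edgeR called in any comparison. It encodes a repressor of the circadian clock whose transcription also responds to glucocorticoids and to cAMP signaling. It stood at 119, 109 and 110 CPM in B6 Ctrl and at 78.1, 59.5 and 64.6 CPM in B6 KD. The groups did not overlap, with means of 113 ± 5.4 and 67.4 ± 9.62 CPM (SD, n = 3 each). Per1 fell by 0.74 ± 0.16 on the log2 scale, a level 0.598 times that of Ctrl (adjusted p = 0.0453 by edgeR's quasi-likelihood test). In that comparison 418 of 15853 genes were called, or 2.64%, against 1 of 10 members. Non-overlap in B6 was seen for 27.8% of all genes and for 2 of 10 members, Per1 and Zbtb16, both lower in KD. Both shares of members rest on 1 or 2 genes.

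In D2, Per1 stood at 79.2, 86.2 and 81.1 CPM in Ctrl and at 53, 76.6 and 89.4 CPM in KD. The KD libraries ran from below to above the Ctrl libraries, and the log2 fold change was -0.17 ± 0.16 (adjusted p = 1). The difference between the strains in the response to KD was 0.57 ± 0.23 (unadjusted p = 0.0317, adjusted p = 0.821), so it did not pass. Averaged over strains, the KD value was -0.46 ± 0.12 (adjusted p = 0.0802), with an unadjusted exact permutation p of 0.03 on log2(CPM + 1). All 10 members were tested in that way, and 0.005 is the smallest p the test can give. Among Ctrl mice, D2 lay below B6 without overlap, with a log2 fold change of -0.46 ± 0.16 (adjusted p = 0.104). Non-overlap between the Ctrl groups was seen for 31.7% of all genes and for 2 of 10 members, Per1 and Tsc22d3.

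The Per1 call in B6 was near the threshold. It held under DESeq2 (adjusted p = 0.000827), which called 10.6% of all genes in that comparison, and limma-voom (adjusted p = 0.049), which called 2.08%. Over 20 alternative fits its log2 fold change stayed between -0.89 and -0.68, its adjusted p ran from 0.000827 to 0.189, and 8 fits placed it past the threshold. Of the 12 fits that left out a library, 3 did. It missed the threshold without any 1 of the 6 B6 libraries, or without D2 Ctrl 1, D2 Ctrl 2 or D2 KD 2, with adjusted p between 0.0502 and 0.189. In 5 of those fits no gene of the table was called in B6. With the choroid plexus score as a covariate the value was -0.70 (adjusted p = 0.078) and again no gene was called.

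**Figure D2:**
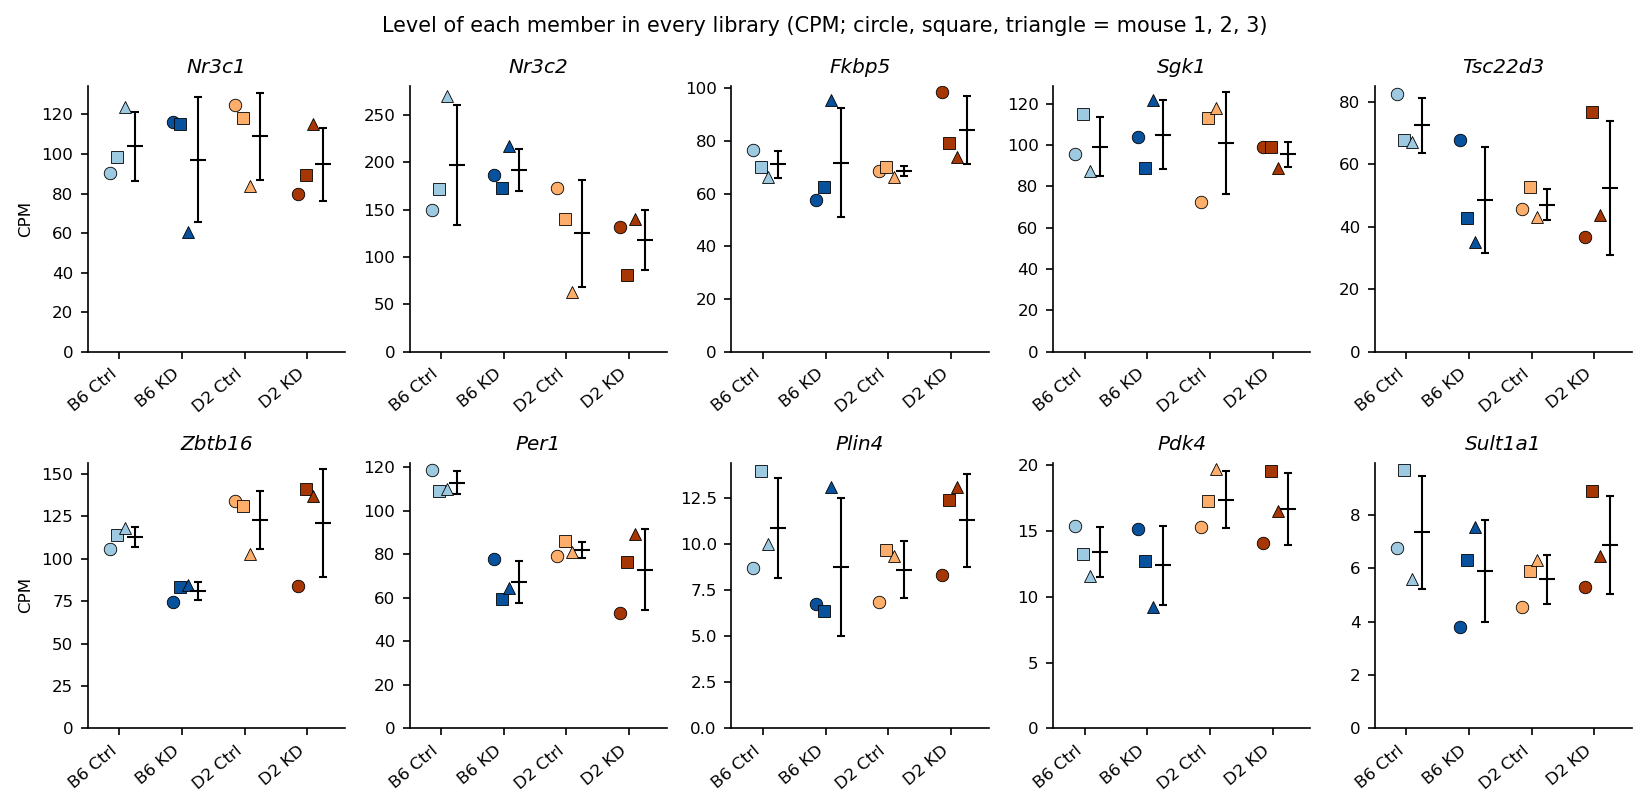
CPM (y axes, from 0) of the 10 members in B6 Ctrl, B6 KD, D2 Ctrl and D2 KD, with 1 symbol for each mouse and, beside them, the mean and SD of 3 libraries. Per1 and Zbtb16 show B6 KD below B6 Ctrl with no overlap, Fkbp5 shows D2 KD above D2 Ctrl, and the other members overlap between KD and Ctrl in both strains.

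The remaining members have metabolic roles and low levels. Pdk4, on chromosome 6, encodes a kinase that inhibits pyruvate dehydrogenase. It stood at 15.4, 13.3 and 11.6 CPM in B6 Ctrl and at 15.2, 12.7 and 9.2 CPM in B6 KD. Libraries of D2 stood at 15.3, 17.3 and 19.7 CPM in Ctrl and at 14.1, 19.6 and 16.5 CPM in KD. D2 means were above B6 means at overlapping libraries. The log2 fold change for D2 against B6 averaged over treatments was 0.41 ± 0.14 (adjusted p = 0.0592 by edgeR, 0.0271 by DESeq2). DESeq2 called 24.6% of all genes in that comparison. KD against Ctrl gave -0.12 ± 0.19 in B6 (adjusted p = 0.766), against -0.06 ± 0.19 in D2 (adjusted p = 1).

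Plin4, on chromosome 17, encodes a lipid droplet coat protein. It stood at 8.74, 14.0 and 10.0 CPM in B6 Ctrl, 6.78, 6.4 and 13.1 CPM in B6 KD, 6.84, 9.68 and 9.37 CPM in D2 Ctrl, and 8.35, 12.4 and 13.1 CPM in D2 KD. Its log2 fold change for KD was -0.31 ± 0.30 in B6 (adjusted p = 0.599), against 0.39 ± 0.30 in D2 (adjusted p = 1). Sult1a1, on chromosome 7, encodes a sulfotransferase of phenolic compounds. It stood at 6.77, 9.67 and 5.58 CPM in B6 Ctrl, 3.8, 6.31 and 7.56 CPM in B6 KD, 4.55, 5.89 and 6.3 CPM in D2 Ctrl, and 5.28, 8.89 and 6.45 CPM in D2 KD. Its log2 fold change was -0.31 ± 0.29 in B6 (adjusted p = 0.585), against 0.31 ± 0.30 in D2 (adjusted p = 1). For both genes the groups overlapped throughout. Exons of Plin4 share 17 bases with Hdgfl2 and those of Sult1a1 share 61 bases with Sgf29 on the other strand.

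**Figure D3:**
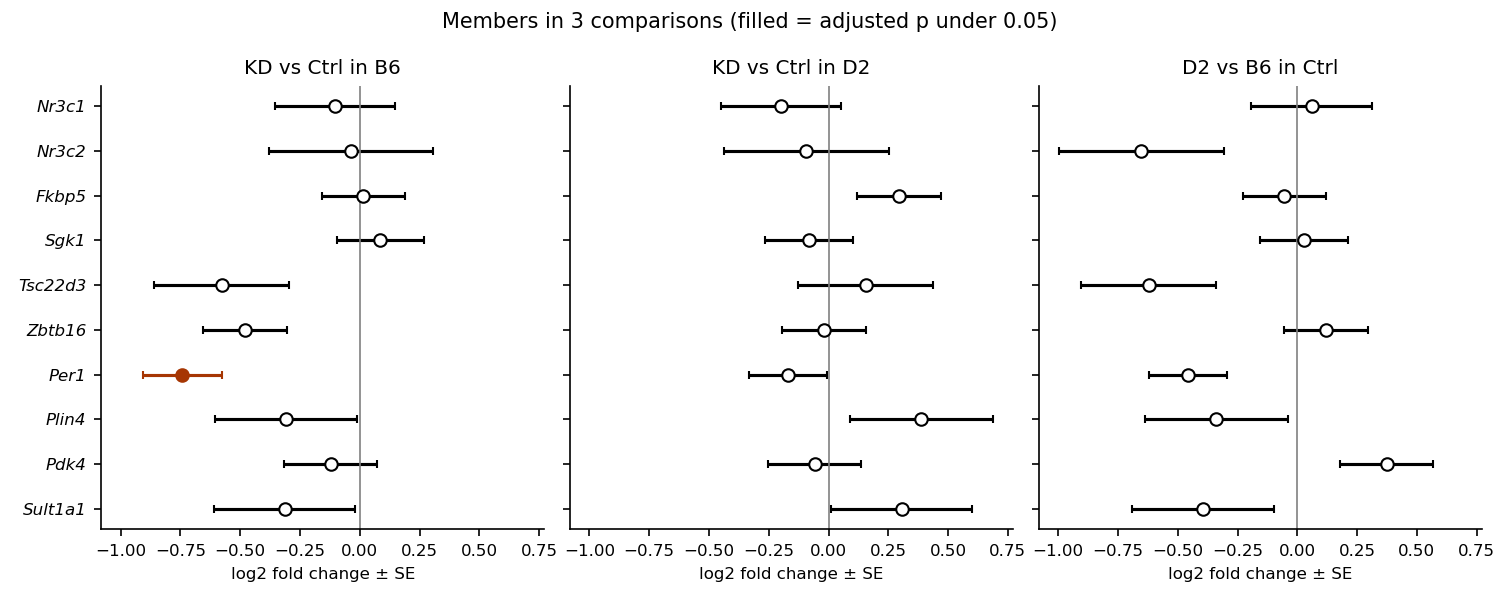
Log2 fold change with SE (x axis) of the 10 members (y axis) in 3 comparisons, KD with Ctrl within B6 and within D2 and the strains within Ctrl. The filled point is Per1 in B6 at -0.74, the single value with an adjusted p under 0.05.

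Across the whole set, edgeR called no member in the other 5 comparisons. For KD against Ctrl averaged over strains 0.0% of all genes were called, and 3046 genes (19.2%) and 1 member had an unadjusted p under 0.05. DESeq2 called 1 member there, Per1 (adjusted p = 0.00703), and 7.83% of all genes. For KD against Ctrl in D2 0.0% of all genes were called, and 452 genes (2.85%) and 0 members had an unadjusted p below 0.05, while DESeq2 called 0.00631% of all genes and 0 members. The interaction gave calls for 0.0% of all genes, and 937 genes (5.91%) and 1 member had an unadjusted p under 0.05. For D2 against B6 in Ctrl 14.0% of all genes were called, and for D2 against B6 averaged over treatments 21.3%, against 0 of 10 members each by edgeR. Of the members, 1 in Ctrl and 3 averaged over treatments had an unadjusted p under 0.05, against 23.2% and 30.3% of all genes, and DESeq2 called 0 and 3 members, against 16.9% and 24.6% of all genes. The median log2 fold change of the members was -0.22 for KD in B6, with 8 of 10 below 0, and -0.04 for KD in D2, with 6 of 10 below 0. The median over all genes was 0.00 in both.

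A common movement of the members among mice of the same strain and treatment was not detected. With group means removed, Pearson r on log2(CPM + 1) was positive in 24 of 45 pairs of members and negative in 21, with a median of 0.033. An exact permutation within groups gave an unadjusted p under 0.05 for 4 pairs and an adjusted p under 0.05 for 0 pairs, the smallest being 0.243 after Benjamini-Hochberg adjustment over the 45 pairs. Nr3c1 and Fkbp5 gave r = -0.82 (exact p = 0.0193, adjusted p = 0.37) and Spearman's rho = -0.80 (exact p = 0.0247, adjusted p = 0.486). Without B6 KD 3 and D2 Ctrl 3, the libraries farthest from the median of Nr3c1, r was -0.82. Nr3c2 and Pdk4 gave r = -0.69 (exact p = 0.0054, adjusted p = 0.243) and rho = -0.68 (exact p = 0.0116, adjusted p = 0.486), and r = -0.63 without D2 Ctrl 3 and D2 KD 2.

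The other pairs with a small unadjusted p were positive. Tsc22d3 and Pdk4 gave r = 0.79 (exact p = 0.0247, adjusted p = 0.37) and rho = 0.70 (exact p = 0.0556, adjusted p = 0.515), and r = 0.67 without B6 KD 1 and D2 KD 2. Sgk1 and Plin4 gave r = 0.64 (exact p = 0.0347, adjusted p = 0.391) and rho = 0.60 (exact p = 0.064, adjusted p = 0.515), and r = 0.55 without B6 KD 2 and D2 Ctrl 1. Fkbp5 and Tsc22d3, both direct targets of the receptor, gave r = -0.55 (exact p = 0.235, adjusted p = 0.643) and rho = -0.25 (exact p = 0.61, adjusted p = 0.852), and r = -0.14 without B6 KD 3 and D2 KD 1.

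**Figure D4:**
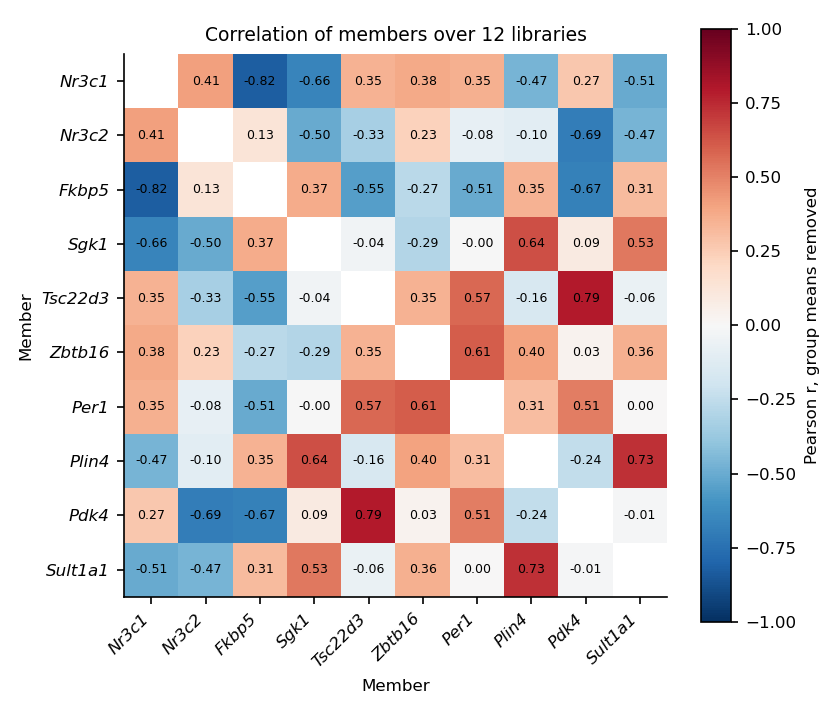
Pearson r between members over 12 libraries after the mean of each group was removed from log2(CPM + 1). Colors run from -1 (blue) to 1 (red). The strongest negative value is Nr3c1 with Fkbp5 (-0.82) and the strongest positive value is Tsc22d3 with Pdk4 (0.79).

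The genes most like 5 of the members were sought by the same r among 14180 tested genes with a mean of at least 1 CPM, as a description over 12 libraries that share their depth and length composition. For Nr3c1 they were Tmem132b (0.99), Ipo8 (0.99) and Zfyve26 (0.99). For Nr3c2 they were Nckap1 (0.99), Ptprj (0.97) and Zfp27 (0.97). For Fkbp5 they were Chchd4 (0.98), Slc10a4 (0.97) and Vapa (0.97). For Sgk1 they were Idh1 (0.92), Robo4 (0.90) and Rmdn2 (0.90), and for Tsc22d3 they were Gm3985 (0.98), Diras1 (0.97) and Stmn4 (0.96). No member was among the 3 genes most like another. The nearest was Pdk4, at rank 266 for Tsc22d3.

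Other genes of the pathway were also read by list. None of 26 other glucocorticoid-responsive genes was called for KD in B6, with 13 above and 13 below 0 and a median log2 fold change of 0.00, and 9 had an unadjusted p under 0.05, where 20.6% of all genes did. DESeq2 called 5 of the 26, against its 10.6% of all genes in B6. The 5 were all above 0 and are named here after their values were seen. By edgeR these were the metallothionein gene Mt2 (1.53 ± 0.37, adjusted p = 0.0545), the transcription factor gene Cebpd (1.01 ± 0.27, adjusted p = 0.0675), the siderophore-binding protein gene Lcn2 (5.16 ± 1.46, adjusted p = 0.0784), the cell cycle inhibitor gene Cdkn1a (1.34 ± 0.39, adjusted p = 0.0871) and the lipase inhibitor gene Angptl4 (1.35 ± 0.41, adjusted p = 0.0951). Of the 9 with a small unadjusted p by edgeR, the transcription factor gene Klf15 (-0.5 ± 0.17, unadjusted p = 0.015) and Dusp1 (-0.83 ± 0.34, unadjusted p = 0.0318) were below 0. The rest of the 9 were above 0. In D2 none of the 26 was called by either tool, with 19 above and 7 below 0, a median of 0.15, and 1 at an unadjusted p under 0.05. Among Ctrl mice 2 of the 26 were called, both lower in D2, where 14.0% of all genes were called. Arl4d, a small GTPase, differed by -0.80 ± 0.22 (adjusted p = 0.0298), and Dusp1, a phosphatase of MAP kinases, by -1.17 ± 0.34 (adjusted p = 0.043). Averaged over treatments 2 of the 26 were called, both lower in D2, where 21.3% of all genes were called. These were Arl4d (-0.56 ± 0.15, adjusted p = 0.0202) and the kinase Map3k6 (-1.34 ± 0.37, adjusted p = 0.0233).

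Of 18 receptor chaperones and coregulators 1 was called for KD in B6, where 2.64% of all genes were. This was the heat-shock cochaperone Dnajb1, which fell by 0.63 ± 0.12 on the log2 scale (adjusted p = 0.0362). Its level was 62.4 ± 6.01 CPM in B6 Ctrl and 40.2 ± 4.84 CPM in B6 KD (SD, n = 3 each). The list's median was -0.16, and 15 of 18 genes were below 0. In D2 none was called, with 11 of 18 below 0 and a median of -0.08. The list's mean log2(CPM + 1) was lowest, at 7.27 to 7.34, in the same 4 libraries that had the lowest shares of counts in long genes. Between strains, averaged over treatments, 1 of the 18 was called, where 21.3% of all genes were, and 15 of 18 genes were above 0. The gene called was the coregulator Nrip1, lower in D2 by a log2 fold change of -1.66 ± 0.41 (adjusted p = 0.0127). Of 10 genes for the supply of the hormone, among them the enzymes that regenerate or inactivate it and corticotropin-releasing hormone with its receptors, 8 could be tested and 0 were called by edgeR in any of the 6 comparisons. For KD in B6 1 of the 8 had an unadjusted p under 0.05, where 20.6% of all genes did. It was the corticotropin-releasing hormone receptor Crhr1 (-0.50 ± 0.15, adjusted p = 0.0915), which DESeq2 called and which is named here after its values were seen. The median of the 8 was 0.11 for KD in B6 and 0.12 in D2.

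Per1 also belongs to the clock and responds to neuronal activity, so lists of both kinds were read beside it. Of 15 other clock genes 1 was called for KD in B6, where 2.64% of all genes were. This was Tef, a PAR bZIP output factor of the clock, which fell by 0.76 ± 0.16 on the log2 scale (adjusted p = 0.0435), from 419 ± 44.5 to 248 ± 33.5 CPM. DESeq2 called 4 of 15, against 10.6% of all genes, and these were Tef and, named after their values were seen, Per2, Cry2 and Hlf, all below 0. Of the 15, 13 were below 0 with a median of -0.35, and 5 had an unadjusted p under 0.05, where 20.6% of all genes did. In D2 0 were called by either tool, 8 were below 0 with a median of -0.08, and 1 had an unadjusted p under 0.05, again Tef (-0.36 ± 0.16, adjusted p = 1). Between the Ctrl groups 1 of the 15 was called, where 14.0% of all genes were. It was Ciart, a clock repressor, lower in D2 Ctrl than in B6 Ctrl (-0.97 ± 0.26, adjusted p = 0.0283). Of 10 immediate early genes none was called for KD in B6, with 9 below 0 and a median of -0.70. At an unadjusted p under 0.05 were 3 of them, against 20.6% of all genes. DESeq2 called 2, against its 10.6% of all genes. They were Arc and Nr4a1, named here after their values were seen. In D2 none was called by either tool, with 6 below 0, a median of -0.07 and 0 at an unadjusted p under 0.05. Among Ctrl mice all 10 were below 0 in D2 against B6 and 3 were called, where 14.0% of all genes were. The 3 were Nr4a1 (-1.19 ± 0.28, adjusted p = 0.0147), Arc (-1.16 ± 0.30, adjusted p = 0.0234) and Egr2 (-1.84 ± 0.49, adjusted p = 0.0277). Averaged over treatments, 2 of the 10 were called, where 21.3% of all genes were. They were Egr2 (-1.32 ± 0.34, adjusted p = 0.0166) and Fos (-1.05 ± 0.30, adjusted p = 0.0291).

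**Figure D5:**
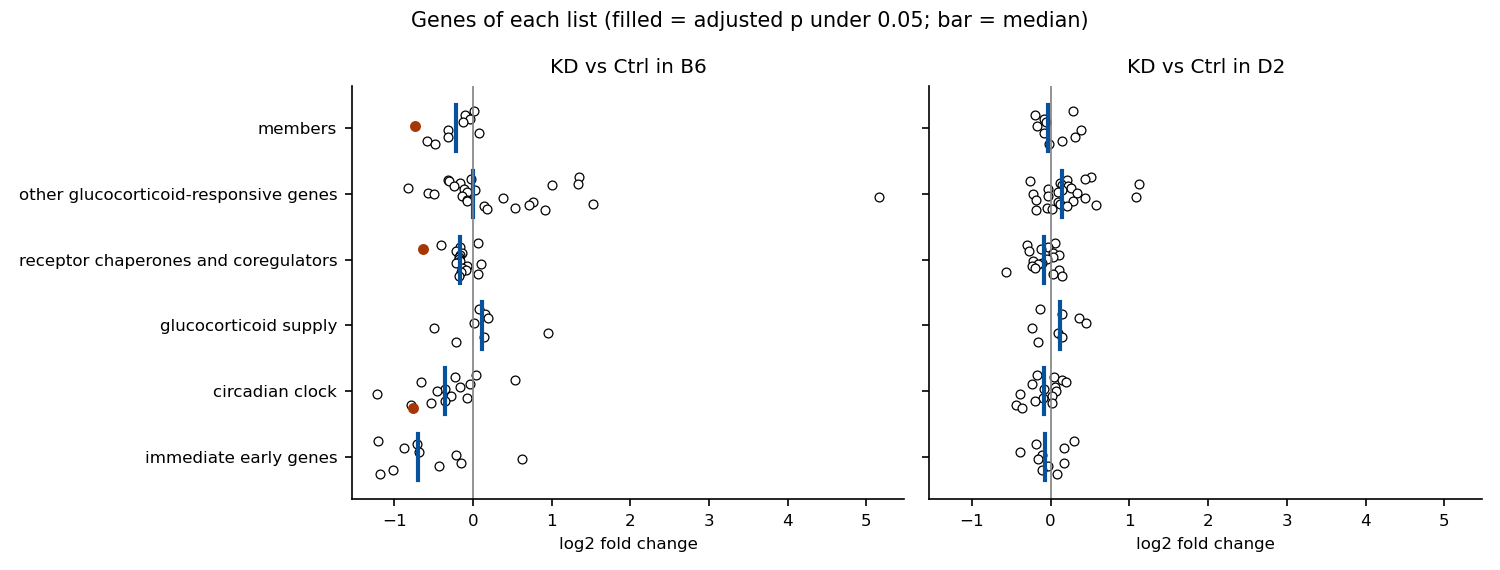
Log2 fold change (x axis) of each tested gene of the members and of 5 lists (y axis) for KD against Ctrl in B6 and in D2, with filled points for adjusted p under 0.05 and a bar at each median. In B6 the filled points are Per1, Dnajb1 and Tef, all below 0, and D2 has none. The open point at the far right in B6 is Lcn2 at 5.16.

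Lists of interferon response genes and of cell type markers were read beside Per1, and not all of them moved with KD in B6. All 10 interferon response genes rose in B6 KD, with a median log2 fold change of 4.33, and the smallest p-values were those of Irf7 (4.69 ± 0.71, adjusted p = 0.0326), Ifit1 (4.34 ± 0.66, adjusted p = 0.0326) and Isg15 (4.37 ± 0.69, adjusted p = 0.0326). Their mean log2(CPM + 1) ran from 2.27 to 2.62 in B6 Ctrl and from 4.89 to 6.54 in B6 KD, and in D2 from 2.5 to 3.88 in Ctrl and from 2.91 to 5.01 in KD. Microglia markers ran from 5.21 to 5.46 in B6 Ctrl and from 5.75 to 6.42 in B6 KD, with 8 of 8 above 0, 0 called by edgeR, 7 at an unadjusted p under 0.05 and 6 called by DESeq2. Of all genes, 20.6% had such an unadjusted p and DESeq2 called 10.6%. Choroid plexus markers ran from 1.94 to 5.83 in B6 Ctrl and from 2.75 to 6.69 in B6 KD, with 9 of 9 above 0, 0 called by either tool and 0 at an unadjusted p under 0.05, and no gene of the list was at 0 in every library. Of 8 astrocyte markers 6 were above 0 for KD in B6, with a median of 0.28. Called by edgeR was 1 of the 8, Aqp4 (1.2 ± 0.19, adjusted p = 0.0326), where 2.64% of all genes were called. The astrocyte mean log2(CPM + 1) ran from 8.33 to 8.36 in B6 Ctrl and from 8.66 to 8.94 in B6 KD. Of 9 endothelial markers, 8 were above 0 with a median of 0.41 and 0 called. Their mean log2(CPM + 1) ran from 4.68 to 5.12 in B6 Ctrl and from 5.13 to 5.32 in B6 KD. The neuron and oligodendrocyte lists had medians of -0.03 and -0.01 with 0 called. The part of these markers in the level of Per1 was not tested beyond the fit with the choroid plexus score.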

How the data were processed

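Hippocampal mRNA of 12 mice was sequenced. Per the labels and the study's methods, the authors used strain-specific genomes for alignment with Bowtie2 2.2.0 and RSEM 1.2.12 for estimates per gene, and reads of both runs were joined for 10 libraries. The submitters' processing notes name GRCm38, and the annotation release is not given in the sources used here. The deposited expected counts are RSEM estimates, not normalized and not always whole. The deposited normalized counts were not used. Dates that had replaced 27 symbols were restored from the Ensembl identifiers, and counts were rounded.

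Groups were taken from the strain and treatment labels, and replicate numbers follow accession order. Nothing says more of the replicates than that they are separate mice. Genes were filtered with filterByExpr, which left 15853 of 22236, and tested with edgeR 4.0.16 in R 4.3.3 (quasi-likelihood F-test, TMM, robust estimation, 4 group means, Benjamini-Hochberg adjustment over all genes tested, threshold 0.05). The SE of a log2 fold change is its size divided by the square root of F, and is approximate. Single genes were also compared on log2(CPM + 1) with an exact 2-sided permutation test of 400 assignments within strains, and 3 libraries against 3 cannot go below 0.1. Exon lengths come from GENCODE M21 and promoter windows from RefSeq on GRCm38.p6. Alternatives used DESeq2 1.42.0, limma 3.58.1, other scaling, no filter, covariates and each library left out. The main edgeR fit was also run on simulated counts, with results not given here, and the alternative fits were not. The members and lists were chosen with earlier results of these data known. Genes named were the 10 members, Hp1bp3, up to 3 called genes for each list and comparison by smallest p, and the 3 genes most like 5 of the members. Outside that rule, list genes that only DESeq2 called for KD in B6, and Klf15 and Dusp1 for KD in B6, were named after their values were seen.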

Additional observations from a re-analysis of the deposited data

How the results depend on the processing

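Of 676 values recomputed under 22 alternatives, 591 kept their direction and their side of the threshold or, for counts, stayed within 1.5 times. The number of members called for KD in B6 was 1 and became 0 with the library total, the choroid plexus score or the long-gene share as a covariate, where Per1 had -0.73 (adjusted p = 0.0715), -0.70 (adjusted p = 0.078) and -0.68 (adjusted p = 0.0525) on the log2 scale. Of all genes, 0.0% were called there with the library total, 0.0% with the choroid plexus score and 2.39% with the long-gene share. Averaged over strains the number was 0 and DESeq2 gave 1, Per1, against 7.83% of all genes. For D2 against B6 averaged over treatments it was 0, and it became 3 with DESeq2 (Nr3c2, Zbtb16 and Pdk4), which called 24.6% of all genes. It became 1 with the choroid plexus score (Pdk4) and 2 with the long-gene share (Nr3c2 and Zbtb16). With 1 library left out the number called ran from 0 to 1 for KD in B6, for KD averaged over strains (1 without D2 KD 3) and for D2 against B6 in Ctrl (Per1, 1 without D2 KD 1), and from 0 to 2 for D2 against B6 averaged over treatments. Nr3c2 passed there without D2 Ctrl 1, Zbtb16 without D2 Ctrl 3 or D2 KD 1, and Pdk4 without B6 Ctrl 1, B6 KD 1 or D2 KD 1. For KD in B6 the fits without 1 library called 0.0% to 4.94% of all genes. For the other comparisons, shares of all genes with a covariate or without 1 library are not given here. The exact permutation p of Per1 averaged over strains was 0.06 without D2 KD 1. The cause of these changes was not tested.

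Small log2 fold changes changed sign, none of them called. For KD in B6 with the long-gene share as a covariate, Nr3c1 was at 0.10, Nr3c2 at 0.26, Fkbp5 at -0.12 and Sgk1 at -0.01, and in D2 Nr3c2 was at 0.08 and Zbtb16 at 0.02. For KD in B6, Nr3c2 was at 0.0 by limma-voom, and Fkbp5 was at -0.01 by DESeq2, -0.02 by limma-voom, -0.01 with DESeq2 size factors in edgeR and -0.05 with the choroid plexus score. With 1 library left out, the range for KD in B6 was -0.28 to 0.12 for Nr3c1, -0.23 to 0.23 for Nr3c2, -0.28 to 0.12 for Fkbp5, -0.07 to 0.18 for Sgk1 and -0.33 to 0.03 for Pdk4. In D2 it was -0.41 to 0.20 for Nr3c2, -0.28 to 0.04 for Sgk1, -0.23 to 0.34 for Tsc22d3, -0.15 to 0.17 for Zbtb16, -0.34 to 0.0 for Per1 and -0.19 to 0.04 for Pdk4. In B6 Per1, Plin4, Sult1a1, Tsc22d3 and Zbtb16 kept their direction in every alternative run, with ranges without 1 library of -0.89 to -0.68, -0.75 to -0.12, -0.57 to -0.10, -0.93 to -0.42 and -0.55 to -0.46. In D2 Fkbp5 (0.15 to 0.38), Nr3c1 (-0.36 to -0.10), Plin4 (0.24 to 0.55) and Sult1a1 (0.07 to 0.45) did. A pseudocount of 0.25 or 5 CPM left the number of correlated pairs past the threshold at 0. The long-gene share was chosen as a covariate after seeing the data. No paired analysis was possible because the labels carry no replicate numbers, only mouse numbers that differ between groups. Depth limits Plin4 and Sult1a1 most, with 104 to 520 counts in a library.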
